A study of Mus musculus with 12 samples.

Results

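Mouse blood stem and progenitor cells with reduced Erg were compared with their controls over both sorted populations together, with the population as a covariate. All 12 arrays of the series entered, 6 with reduced Erg and 6 controls, and 9984 genes were measured. Hematopoietic stem cells (HSCs) came from Erg +/+ mice (3 arrays) and from Erg +/- mice (3 arrays), which carry 1 Erg allele deleted by a general Cre deleter. The titles call the Erg +/- samples knock-outs, and the genotype field was followed here. Multipotent progenitors (MPPs) were sorted from mice with the genotypes Erg fl/fl (3 arrays) and Erg -/- (3 arrays), in the latter of which Mx1-Cre had removed the floxed exon that encodes the DNA-binding domain. Mice of both MPP groups had received 5 doses of pIpC, a double-stranded RNA that switches on the interferon-driven Mx1 promoter, each of 200 µl at 1.5 mg/ml and 2 days apart, and their cells were taken 2 weeks after the first dose. The HSC labels name no pIpC. All mice were male and had been bred to C57Bl/6 for at least 6 generations; the sources used here do not give their age.

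The pooled comparison joins an Erg +/- state that was present from the germ line in HSCs with an induced Erg -/- state in MPPs. Allele dose, Mx1-Cre, pIpC and population cannot be told apart between the HSC and the MPP comparison, and Mx1-Cre was present in the Erg -/- MPPs and not in their controls. HSCs were sorted from marrow enriched for c-Kit as cells that carried Sca-1, c-Kit and CD150 and lacked lineage markers and CD48. The gate of the MPPs is given as CD150-negative in one field and, in another, as the CD150-positive gate of the HSCs. Erg, Kit, Slamf1 (CD150) and Cd34 are not analysed here, so neither the deletion nor the gates could be checked on them. Other markers did separate the populations: Mmrn1, a gene of the most primitive HSCs, lay between log2 values of 8.55 and 9.08 on the HSC arrays and between 3.64 and 5.05 on the MPP arrays, and Flt3, the receptor of lymphoid-primed progenitors, between 4.57 and 6.38 on HSC arrays and between 8.65 and 9.65 on MPP arrays. Array medians were 5.41 to 5.54, and correlations over genes were 0.953 to 0.974 within a group, 0.950 to 0.970 between genotypes of a population and 0.928 to 0.960 between populations. Interquartile ranges of the arrays were 2.89 to 2.99 in Erg +/+ and 2.83 to 2.87 in Erg +/- HSCs. In MPPs they were 2.53 to 2.84 in Erg fl/fl and 2.50 to 2.64 in Erg -/- cells. Arrays have no read depth; the number of arrays limits the precision.

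Erg is an ETS-family transcription factor, a class of proteins that bind DNA at a GGAA core, and it is required for HSCs to persist. It acts beside other factors of stem cell and megakaryocyte genes, and excess Erg is found in acute leukemias. In the marrow, HSCs give rise to MPPs, which then enter the erythroid, megakaryocytic, myeloid or lymphoid branches. The comparison asks which genes have different levels when Erg is reduced, whichever of the populations is examined.

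Across both populations 2 genes rose and 1 fell with reduced Erg. P2ry10, a G protein-coupled receptor of leukocytes for lysophospholipids, rose 2.68-fold. Ces2g, a carboxylesterase that hydrolyses esters, rose 1.85-fold. Slco3a1, an organic anion transporter of the cell membrane, fell 2.26-fold. These 3 of 9984 genes (0.03%) passed the threshold of an adjusted p under 0.05 in limma's additive model, each with an adjusted p of 0.0409. Unadjusted p-values under 0.05 belonged to 258 genes with higher values (2.58%) and 439 with lower values (4.4%), and 5105 genes (51.1%) had a positive difference.

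In P2ry10 the log2 values were 4.08, 4.04 and 4.67 in Erg +/+ HSCs and 5.90, 6.56 and 5.56 in Erg +/- HSCs. They were 4.65, 4.02 and 4.14 in Erg fl/fl MPPs and 5.68, 5.12 and 5.31 in Erg -/- MPPs. All reduced-Erg arrays lay above all control arrays, also across populations, and the means of the control groups, 4.26 ± 0.35 in HSCs and 4.27 ± 0.33 in MPPs (SD, n = 3 each), differed by less than their spread. P2ry10 was dim in the controls: all control values lay below 4.695, the 25th percentile of gene levels. Their likeness may therefore be one of background. With a mean level of 4.98, P2ry10 is left out by a filter at the 50th percentile (5.81). The additive difference was 1.42 log2 units (SE 0.211, 95% confidence interval 0.97 to 1.88), with 1.75 in HSCs and 1.10 in MPPs. The difference of -0.65 between the populations' effects (SE 0.398) had an adjusted p of 1 by limma.

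Ces2g had very different base levels in the populations and moved on top of them. Its log2 values were 7.85, 7.69 and 7.35 in Erg +/+ and 8.68, 8.64 and 8.79 in Erg +/- HSCs. In MPPs they were 5.22, 5.07 and 4.97 in Erg fl/fl and 5.98, 5.53 and 5.87 in Erg -/- cells. Within each population the groups did not overlap, while the control MPPs minus the control HSCs came to -2.54 log2 units. The additive difference was 0.89 (SE 0.130, interval 0.61 to 1.17), with 1.07 in HSCs and 0.71 in MPPs. Ces2 genes are a cluster of close relatives, so the probe set could also read a paralog; Ces2b, the other one measured, had an additive difference of 0.05.

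Slco3a1 was at 7.63, 7.92 and 7.72 in Erg +/+ HSCs and at 7.08, 6.52 and 6.13 in Erg +/- HSCs. It was at 8.04, 7.91 and 7.67 in Erg fl/fl MPPs and at 6.65, 6.49 and 6.97 in Erg -/- MPPs. Every control array lay above every reduced-Erg array. The difference was -1.18 log2 units in HSCs and -1.17 in MPPs, and -1.18 in the additive model (SE 0.157, interval -1.52 to -0.84).

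**Figure D1:**
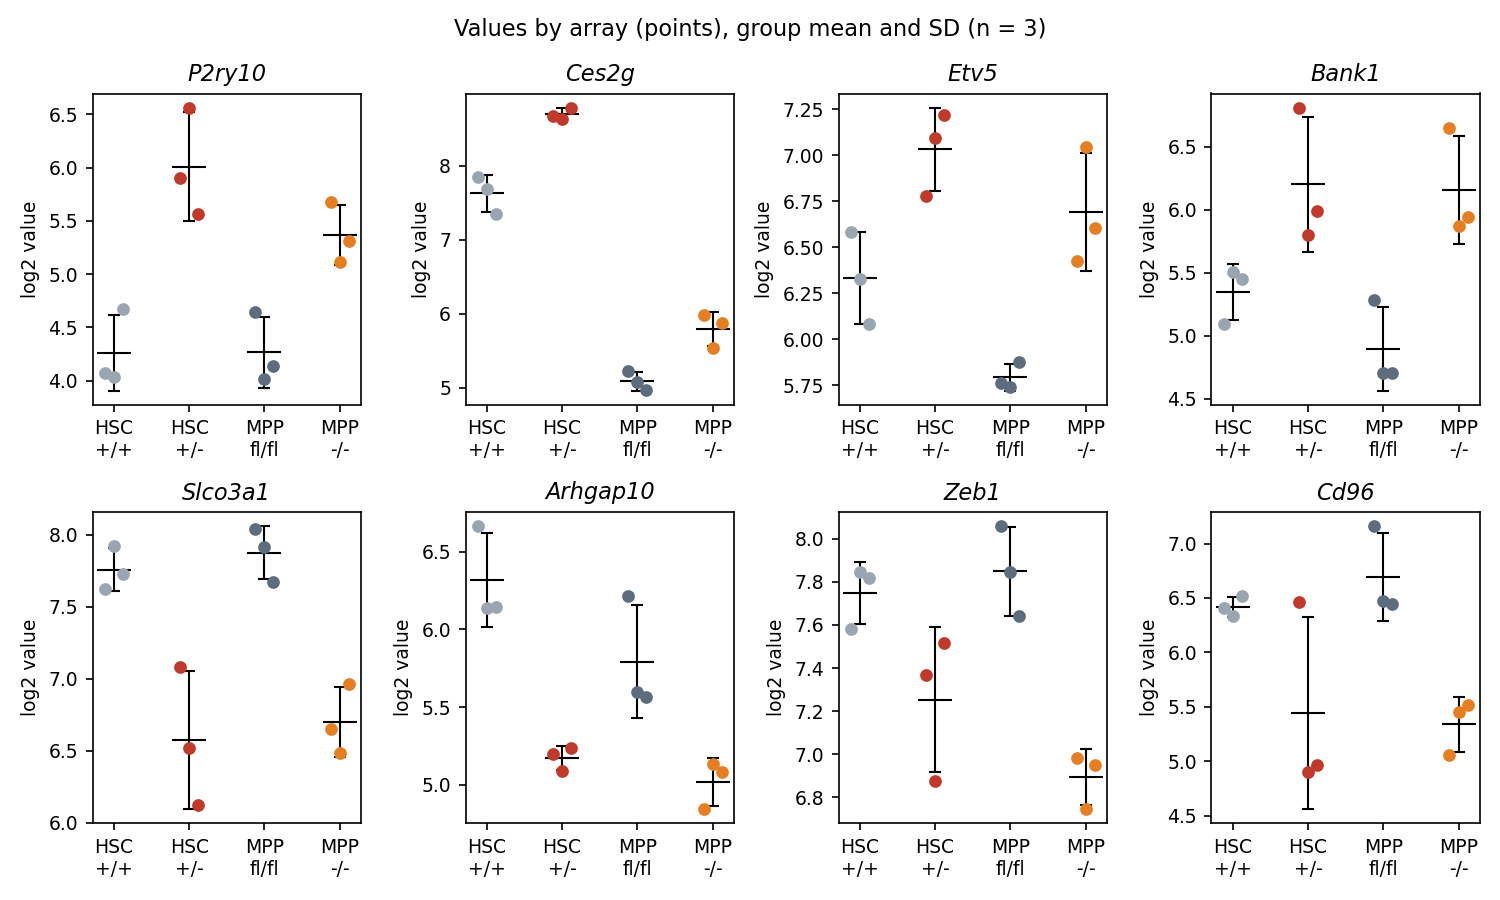
Log2 values (y axis, a separate range in each panel) of 8 genes on each array (points), by population and Erg genotype (x axis), with the group mean and SD (n = 3). The upper row holds genes with higher and the lower row genes with lower values with reduced Erg; P2ry10, Ces2g and Slco3a1 passed the threshold, and in Cd96 one Erg +/- array at 6.46 lies among the controls.

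These calls depended on the setting. None of the 3 genes passed with the replicate block, over all deposited probe sets (smallest adjusted p 0.266) or without both replicate 1 controls, Erg +/+ and Erg fl/fl. P2ry10 passed in none of the 12 fits that left out 1 array (adjusted p 0.0587 to 0.181). Ces2g passed in 1 of them, without Erg -/- replicate 2 (0.0424, otherwise up to 0.181), and Slco3a1 in 1, without Erg +/- replicate 1 (0.00371, otherwise up to 0.181). The size of the differences moved less, between 1.26 and 1.54 for P2ry10, 0.81 and 0.97 for Ces2g and -1.29 and -1.08 for Slco3a1.

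The genes next in order had the same sign in both populations and did not pass. Arhgap10, a GTPase-activating protein, had an adjusted p of 0.0582 by limma. Its values were 6.66, 6.14 and 6.15 in Erg +/+ against 5.20, 5.09 and 5.24 in Erg +/- HSCs, and 6.21, 5.60 and 5.57 in Erg fl/fl against 4.84, 5.14 and 5.08 in Erg -/- MPPs. The groups did not overlap in either population, and the additive difference was -0.96 (SE 0.151). Etv5, an ETS factor of the PEA3 branch that is induced by receptor tyrosine kinase signalling, stood at 6.58, 6.33 and 6.08 in Erg +/+ and 6.78, 7.09 and 7.22 in Erg +/- HSCs. In MPPs it stood at 5.77, 5.74 and 5.88 in Erg fl/fl and 6.43, 7.05 and 6.60 in Erg -/- cells. The additive difference of Etv5 was 0.80 (SE 0.139, limma adjusted p = 0.123), with 0.70 in HSCs and 0.90 in MPPs. Bank1, a scaffold of B cell receptor signalling, was at 5.09 to 5.51 in Erg +/+ against 5.80 to 6.81 in Erg +/- HSCs and at 4.71 to 5.28 in Erg fl/fl against 5.87 to 6.65 in Erg -/- MPPs. Its additive difference was 1.05 (SE 0.206, limma adjusted p = 0.308).

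Promoters of genes whose arrays lay apart in both populations are shown because Erg binds the ETS core. The letters are the 250 bases before the most upstream start of each gene, 5′ to 3′ on the gene's strand, from RefSeq (GRCm38.p6). Capitals mark a GGAA core with a common ETS flank, which was searched as the motif AGGAAG and as its variant that starts with a C in place of the first A (the motif CGGAAG), on both strands. Shown are 3 named genes of each direction, taken in order of p among those in the promoter table. Genes on 1 chromosome were left out of this choice. Zeb1, which had a smaller p than the 3 genes with lower values shown here, is not among them. Slco3a1 and Arhgap10, with smaller p still, were not in the promoter table. P2ry10 lies at chrX:107088242-107088491 (+), Ces2g at chr8:104961468-104961717 (+) and Etv5 at chr16:22439571-22439820 (-). Atp11b lies at chr3:35753813-35754062 (+), Zfp873 at chr10:82047873-82048122 (+) and Itpr2 at chr6:146502224-146502473 (-).
P2ry10: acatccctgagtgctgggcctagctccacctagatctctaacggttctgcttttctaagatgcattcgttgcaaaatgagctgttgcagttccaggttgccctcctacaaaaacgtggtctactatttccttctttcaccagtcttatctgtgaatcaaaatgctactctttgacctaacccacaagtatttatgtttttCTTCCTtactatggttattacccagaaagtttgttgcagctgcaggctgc
Ces2g: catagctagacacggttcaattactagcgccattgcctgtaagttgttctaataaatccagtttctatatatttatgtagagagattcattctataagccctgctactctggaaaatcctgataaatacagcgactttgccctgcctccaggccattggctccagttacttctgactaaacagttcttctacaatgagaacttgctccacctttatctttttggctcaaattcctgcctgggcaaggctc
Etv5: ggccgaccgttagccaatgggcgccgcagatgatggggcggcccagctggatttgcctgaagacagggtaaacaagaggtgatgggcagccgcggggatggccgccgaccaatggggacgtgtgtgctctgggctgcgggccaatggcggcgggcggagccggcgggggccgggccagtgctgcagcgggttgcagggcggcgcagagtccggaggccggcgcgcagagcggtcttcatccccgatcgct
Atp11b: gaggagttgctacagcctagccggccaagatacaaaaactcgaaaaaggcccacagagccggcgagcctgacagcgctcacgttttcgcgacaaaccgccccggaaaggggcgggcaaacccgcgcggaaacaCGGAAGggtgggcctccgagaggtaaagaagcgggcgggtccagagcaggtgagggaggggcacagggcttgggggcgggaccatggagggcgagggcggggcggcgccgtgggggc
Zfp873: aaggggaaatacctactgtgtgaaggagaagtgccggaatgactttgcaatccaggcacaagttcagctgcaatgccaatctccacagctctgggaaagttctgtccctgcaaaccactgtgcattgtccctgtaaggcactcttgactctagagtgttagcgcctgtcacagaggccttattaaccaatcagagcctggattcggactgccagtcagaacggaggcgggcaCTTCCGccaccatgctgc
Itpr2: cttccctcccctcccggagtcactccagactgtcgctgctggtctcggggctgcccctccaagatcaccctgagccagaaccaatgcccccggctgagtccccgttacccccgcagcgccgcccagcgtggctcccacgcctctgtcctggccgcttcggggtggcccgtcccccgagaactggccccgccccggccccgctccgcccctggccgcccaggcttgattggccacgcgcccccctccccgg
P2ry10, Atp11b and Zfp873 held 1 match each, and in the windows of Ces2g, Etv5 and Itpr2 the letters do not occur. A match was held by 39% of all 27025 promoters listed, and of the 7756 that belong to genes measured here 42.8% did. Among genes whose arrays lay wholly apart in both populations the share was 15 of 28 (53.6%) with higher and 12 of 31 (38.7%) with lower values. A match is a description of the letters and not a binding site.

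Agreement between the populations was next counted over all genes. A gene was higher in both populations by sign in 2890 cases (28.9%) and lower in both in 2569 (25.7%), against 2483 (24.9%) higher in HSCs and lower in MPPs and 2042 (20.5%) the other way round. No gene passed when a change was required in each population separately (limma, the larger of both p-values, adjusted). At an unadjusted p under 0.05 in each population, 13 genes were higher (0.13%) and 30 lower (0.3%) in both. The 3 reduced-Erg arrays lay wholly above the 3 controls in both populations for 36 genes (0.361%) and wholly below for 42 (0.421%), against 22 (0.22%) and 9 (0.0901%) that lay apart in opposite directions. The median additive difference was 0.40 log2 units over the 36 and -0.51 over the 42, values that their selection sets. The genes with higher values were dimmer, with a median level of 5.34 against 5.81 for all genes, and those with lower values brighter, with 7.10. The interquartile ranges of the arrays also differed between groups, and their bearing on these levels was not tested.

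**Figure D2:**
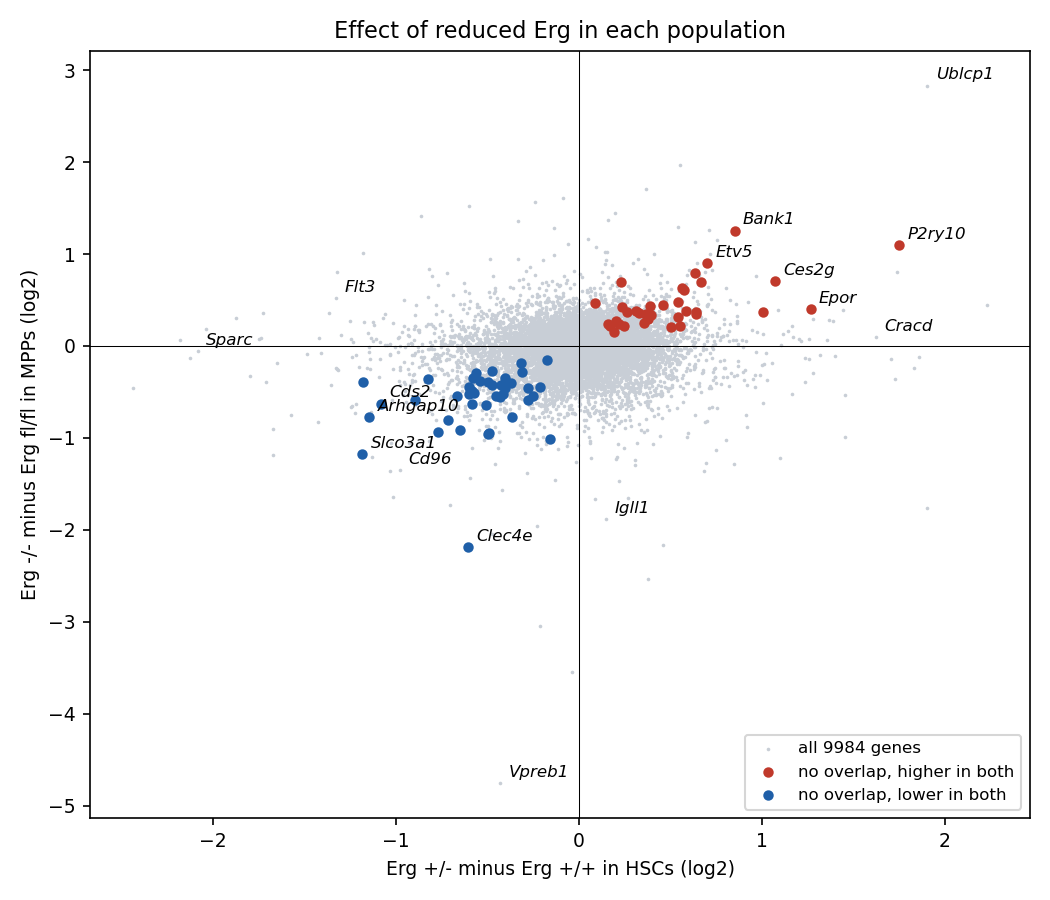
Difference of Erg +/- minus Erg +/+ HSCs (x axis, log2) against Erg -/- minus Erg fl/fl MPPs (y axis, log2) for all 9984 genes (grey); red and blue points are the 36 and 42 genes whose arrays did not overlap in either population. Slco3a1 lies at -1.18 and -1.17 and P2ry10 at 1.75 and 1.10, while Vpreb1, Igll1, Sparc, Cracd and Flt3 lie away from the diagonal.

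Among the genes with lower values in both populations several act at membranes and in calcium or lipid handling. Atp11b, a phospholipid flippase, was at 9.36 to 9.56 in Erg +/+ and 8.98 to 9.32 in Erg +/- HSCs, and at 9.64 to 9.74 in Erg fl/fl and 8.84 to 9.10 in Erg -/- MPPs. Its additive difference was -0.57 (limma adjusted p = 0.329), with -0.36 in HSCs and -0.77 in MPPs. Itpr2, an inositol trisphosphate receptor that releases calcium, stood at -0.72 (adjusted p = 0.378 by limma), Cers6, a ceramide synthase, at -0.85 and Stimate, a partner of the calcium sensor STIM, at -0.79 (both 0.446). Cds2, an enzyme of phosphatidylinositol synthesis, had -1.08 in HSCs and -0.63 in MPPs. These functions were noticed after the values were seen and were not tested as a group.

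Other genes with lower values in both populations are given singly. Zeb1, a zinc-finger repressor, was at 7.58, 7.84 and 7.82 in Erg +/+ against 7.37, 6.88 and 7.52 in Erg +/- HSCs, and at 8.06, 7.84 and 7.64 in Erg fl/fl against 6.98, 6.75 and 6.95 in Erg -/- MPPs. The groups did not overlap, with -0.49 log2 units in HSCs and -0.96 in MPPs (additive limma adjusted p = 0.329). Cd96, an adhesion receptor of T and NK cells that also marks leukemic stem cells in humans, read 6.41, 6.33 and 6.52 in Erg +/+ HSCs, and 6.46, 4.91 and 4.97 in Erg +/- HSCs. In MPPs it read 7.16, 6.47 and 6.44 in Erg fl/fl and 5.05, 5.45 and 5.52 in Erg -/- cells. One Erg +/- array was among the controls: the additive difference was -1.16 (limma adjusted p = 0.329), and without that array, Erg +/- replicate 1, it was -1.41 and passed (adjusted p = 0.00371, and up to 0.679 with another array left out). Clec4e, a receptor of myeloid cells for damaged cells and mycobacterial glycolipid, had a small difference of -0.61 in HSCs, where it was dim (3.62 to 4.77), and -2.19 in MPPs (5.32 to 7.37 in Erg fl/fl, 3.79 to 4.34 in Erg -/-). Hemgn, a nuclear protein of blood progenitors and erythroid precursors, stood at -0.74 (limma adjusted p = 0.454). Pecam1, an adhesion molecule of endothelium and HSCs, stood at -0.45 (0.567) and Fth1, the ferritin heavy chain, at -0.16 (0.78), both with no overlap in either population.

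Further genes with higher values in both populations did not pass. Cd2ap, an adaptor between receptors and actin, was at 7.86 to 8.14 in Erg +/+ and 8.58 to 8.65 in Erg +/- HSCs, and at 7.63 to 8.50 in Erg fl/fl and 8.91 to 9.08 in Erg -/- MPPs (additive difference 0.71). Ublcp1, a phosphatase of the nuclear proteasome, had a difference of 2.37 log2 units but a wide spread (SE 0.494), and its HSC groups overlapped, at 2.90 to 5.17 against 5.04 to 6.94. Both had an adjusted p of 0.329 by limma. Trib2, a pseudokinase that can drive leukemia, was at 5.83 to 6.11 against 6.19 to 6.70 in HSCs and at 5.47 to 6.04 against 6.15 to 6.60 in MPPs, a difference of 0.59 (adjusted p = 0.446 by limma). Kcnj15, an inward-rectifier potassium channel, is the coding gene next to Erg in the RefSeq order of GRCm38.p6. It was at 5.14, 5.11 and 4.98 in Erg +/+ and 5.44, 6.38 and 5.41 in Erg +/- HSCs, and at 5.22, 5.65 and 5.32 in Erg fl/fl and 6.15, 6.12 and 6.01 in Erg -/- MPPs. The difference was 0.68 (limma adjusted p = 0.446), while the other 6 measured of 12 coding neighbours, among them Dyrk1a, Psmg1 and Brwd1, had additive differences of -0.28 to 0.21. These average over the populations: Brwd1 had 0.33 in HSCs and -0.46 in MPPs, and Psmg1 0.41 and -0.13. Ets2, the coding gene next to Erg on the other side, was not measured.

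Gene lists of blood lineages and pathways were described by counts and medians beside all genes. The erythroid list had the highest share of members with higher values in both populations of the lists described here. Of its 44 genes 22 were measured, without globins and glycophorin, and 20 of the 22 (90.9%) were higher in both populations by sign, where 28.9% of all genes were. None passed; at an unadjusted p under 0.05 there were 8 members, all with higher values (additive background 2.58%). The median difference was 0.21 log2 units against 0.01 for all genes, with 0.30 in HSCs and 0.17 in MPPs. Higher values with reduced Erg were already known in HSCs from an earlier look at these arrays, so the list is not independent evidence of its direction. In sorted cells in bulk, a higher share of cells of one type and more of its RNA per cell cannot be told apart.

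Of the erythroid genes, Alas2, the erythroid enzyme that starts heme synthesis, was at 5.84, 5.62 and 5.61 in Erg +/+ and 6.14, 6.75 and 5.86 in Erg +/- HSCs. It was at 6.03, 5.81 and 6.21 in Erg fl/fl and 6.72, 6.33 and 6.87 in Erg -/- MPPs, with no overlap in either population (difference 0.59, limma adjusted p = 0.454). Epor, the erythropoietin receptor, was at 5.46, 5.79 and 5.94 against 6.90, 6.14 and 7.95 in HSCs and at 5.62, 6.00 and 5.90 against 6.04, 6.50 and 6.17 in MPPs. It did not overlap either, with 1.27 in HSCs and 0.40 in MPPs (adjusted p = 0.559 by limma). Slc4a1, the band 3 anion exchanger of red cells, had 0.97 and 0.76, and Ermap, an erythroid membrane protein, 0.63 and 0.59, with overlapping groups. The blood group genes Rhd and Kel had 1.12 and 1.14 in HSCs but 0.13 and 0.17 in MPPs. The master regulators Gata1 and Klf1 had additive differences of 0.19 and 0.16. Icam4, an erythroid adhesion molecule, was the only member with a negative difference (-0.05).

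As a mean over its 22 genes, the erythroid list lay between 5.78 and 5.94 on the Erg +/+ arrays and between 6.17 and 6.50 on the Erg +/- arrays, without overlap. In MPPs the ranges overlapped, at 5.88 to 6.11 in Erg fl/fl and 6.00 to 6.49 in Erg -/- cells. Car1, an abundant carbonic anhydrase of early erythroid progenitors, reached 10.27 on Erg -/- replicate 2 and 6.55 on replicate 3. Without Erg -/- replicate 2, 15 members were higher in both populations, and 16 without Erg -/- replicate 3 or without Erg fl/fl replicate 2. The erythroid mean was thus higher with reduced Erg beside P2ry10, Ces2g and the other genes with higher values, without overlap in HSCs and with overlap in MPPs, and its part in them was not tested.

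**Figure D3:**
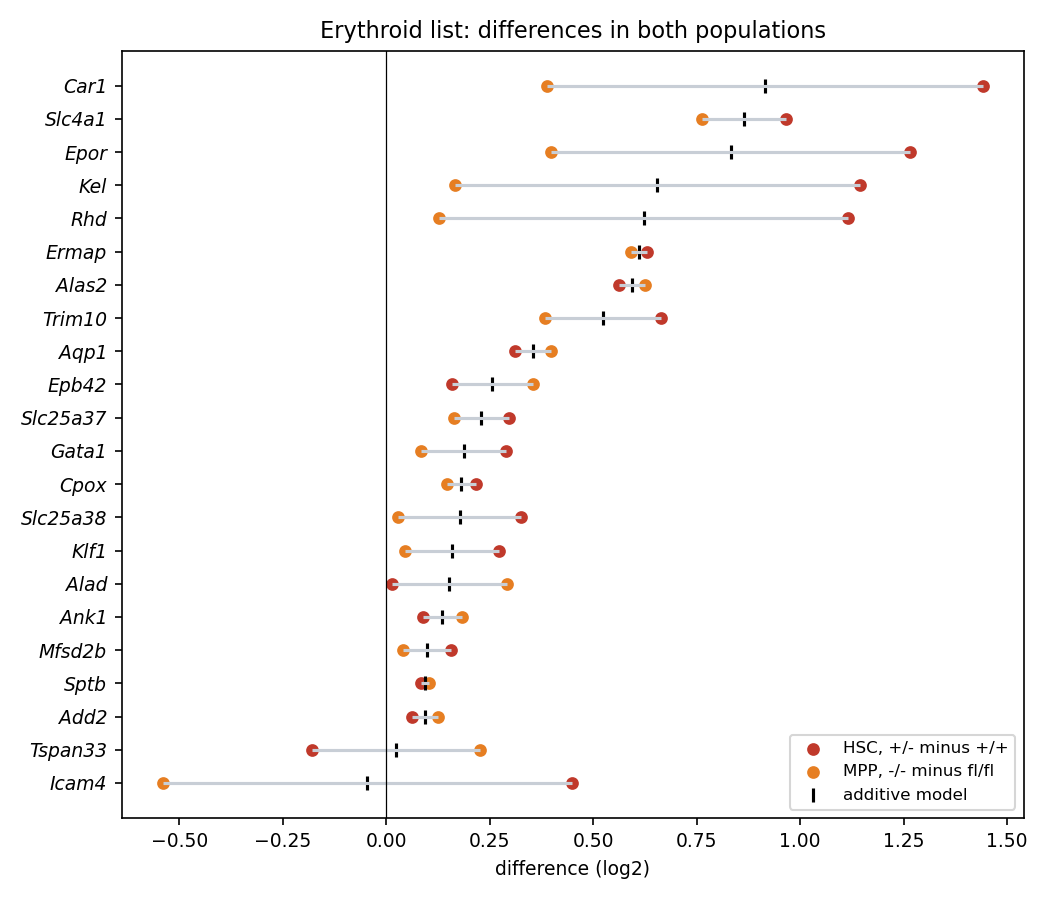
Differences of the 22 measured erythroid genes (y axis) in log2 units (x axis): Erg +/- minus Erg +/+ HSCs (red), Erg -/- minus Erg fl/fl MPPs (orange) and the additive model (black bar). All but Tspan33 and Icam4 lie above 0 in both populations; Alas2 and Ermap have nearly equal effects, Epor, Kel and Rhd larger ones in HSCs.

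Other lineages showed no such agreement. The megakaryocyte list had 0 of 8 members higher and 3 lower in both populations (median -0.04). The HSC-associated list had 1 of 9 higher and 3 lower in both (median -0.15). Among the lower ones were Eng, a TGF-beta co-receptor, at -0.46 and Mmrn1 at -0.52. The higher one, Nupr1, stood at 0.64, with 1.22 in HSCs and 0.05 in MPPs. Of the monocyte, macrophage and dendritic genes 13 of 16 (81%) had positive differences, against 51.1% of all genes, but only 6 were higher in both (median 0.17). Hmox1, heme oxygenase, stood at 0.88 and the class II gene H2-Eb1 at -0.60 (adjusted p = 0.454 and 0.508 by limma). The endothelial and stromal list had 4 of 19 higher and 8 lower in both (median -0.13). B lineage genes had 5 of 14 higher and 4 lower in both (median 0.08), early lymphoid genes 0 of 8 higher and 2 lower (median -0.06), T and NK genes 2 higher and 2 lower of 9 (median -0.00), granulocyte-macrophage genes 4 and 1 of 15 (median -0.09) and mast cell, basophil and eosinophil genes 5 and 2 of 11 (median 0.10). No member of these lists passed in the additive model, where 0.03% of all genes did; at an unadjusted p under 0.05, which 2.58% of all genes met with higher and 4.4% with lower values, the members with lower values were 3 of 9 in the HSC-associated, 4 of 19 in the endothelial and stromal and 3 of 14 in the B lineage list. The remaining lineage lists held 0 to 2 such members with lower values, and all of these lists 0 to 2 with higher values. Of the 3 HSC-associated members with lower values, Ifitm1 had 0.09 in HSCs and -1.66 in MPPs.

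Among pathways, the ETS family had 5 of 11 measured members higher in both populations and 3 lower. Etv4, the close relative of Etv5, was at 5.07 to 5.45 in Erg +/+ against 5.48 to 5.55 in Erg +/- HSCs and at 5.22 to 5.54 in Erg fl/fl against 5.66 to 5.74 in Erg -/- MPPs, a small difference of 0.23 without overlap (limma adjusted p = 0.706). The list of ERK output and feedback genes, which holds Etv4 and Etv5, had 5 of 12 members higher and 2 lower in both (median 0.12), with Spry4, a feedback inhibitor of the pathway, at 0.42. Of the interferon response genes 3 of 16 were higher and 6 lower in both (median -0.06), with Irf1, an interferon-induced factor, at -0.70 and Ifit3 at 0.71. Ribosome biogenesis genes had opposite medians, 0.09 in HSCs and -0.18 in MPPs, with 5 of 53 higher and 14 lower in both. This was not particular to them. Medians were further apart in the granulocyte-macrophage list (0.29 in HSCs and -0.36 in MPPs) and the G2/M list (0.16 and -0.23). The early lymphoid list had 0.11 and -0.20. The pooled medians of these lists near 0 thus average opposite signs. S phase genes had 4 of 19 higher and 7 lower (median 0.02) and G2/M genes 0 of 12 higher and 4 lower (median -0.02). Genes of p53, apoptosis and CDK inhibition had 11 of 26 higher and 8 lower (median 0.03), with the CDK inhibitor Cdkn2b at 0.39 and Btg2 at -0.64. Of adhesion and homing genes, 3 of 20 were higher and 4 lower in both (median -0.08), and P2ry10 was the only member of any list that passed in the additive model. At an unadjusted p under 0.05 (2.58% of all genes with higher and 4.4% with lower values), 3 of 12 ERK genes and 2 of 11 ETS genes had higher values, both counts including Etv4 and Etv5. The ETS list held 1 member with lower values and the ERK list 0, and the other pathway lists held 0 to 2 in each direction.

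**Figure D4:**
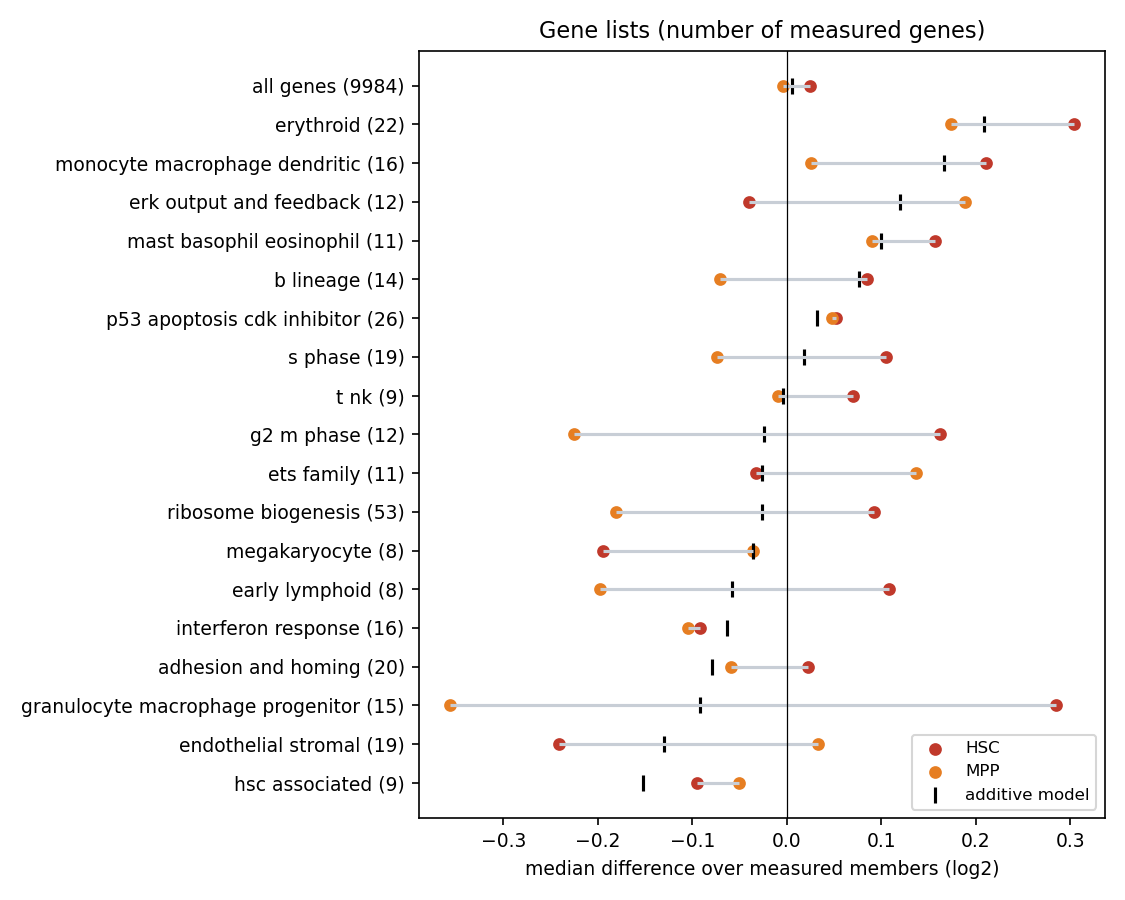
Median difference (x axis, log2) over the measured members of each gene list (y axis, number in brackets) in HSCs (red), MPPs (orange) and the additive model (black bar). The erythroid list lies at 0.30 and 0.17, right of all genes in both populations. The ribosome biogenesis list lies at 0.09 and -0.18, and the granulocyte-macrophage list at 0.29 and -0.36. Further lists also have medians of opposite sign.

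The additive difference covers both populations, so 1 population can carry its size. Unequal effects then add to the residual spread of the additive model, while a model with a mean per group fits them separately. In that model the average of both effects passed for 10 genes (0.1%), 3 higher (0.03%) and 7 lower (0.0701%), which include P2ry10, Ces2g and Slco3a1 (adjusted p = 0.0159 each) and Arhgap10 (0.0303). The other 6 had a difference mainly in 1 population and did not pass in the additive model. Cracd, an actin-capping regulator, had 1.62 log2 units in HSCs and 0.10 in MPPs, while its other probe set had 0.34 and -0.04 (additive difference 0.15 against 0.86). Vpreb1 and Igll1, the surrogate light chain genes of pre-B cells, had -0.43 and 0.15 in HSCs against -4.75 and -1.88 in MPPs. Ifitm1, an interferon-induced membrane protein, had 0.09 against -1.66, AW112010 had -0.23 against -1.96 and the basophil protease gene Mcpt8 -0.04 against -3.54. A difference between the effects passed for 2 genes (0.02%), Igll1 and Ifitm1. Within HSCs 2 genes passed (0.02%) and within MPPs 8 (0.0801%), none of them P2ry10, Ces2g or Slco3a1, whose adjusted p-values within a population by limma were 0.0638, 0.0666 and 0.152 in HSCs and 0.497, 0.468 and 0.152 in MPPs.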

How the data were processed

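RNA of the 12 sorted samples was measured on Affymetrix arrays; 20 ng of total RNA was amplified and 2.5 µg of cDNA labelled, per the labels. The authors deposited log2 values, made with RMA and the affy package (versions and build not given in the sources used here), per the submitters' processing notes. RMA sets values against the other probe sets of an array and compresses folds of dim genes. Of 18719 probe sets 10657 had 1 gene symbol, 523 several, and 7539 were unnamed; the probe set with the highest mean was kept per gene (9984 genes). The limma 3.58.1 fit (R 4.3.3) had population as covariate and 9 residual degrees of freedom, and a model with a mean per group gave the effects within populations. Tests were two-sided, adjusted by Benjamini-Hochberg over all genes, threshold 0.05. On simulated data of 9984 genes, the additive model called 93 of 100 genes that differed by 1 log2 unit. It also called 98 of 100 that differed by 2, and 10 unchanged genes. Whether these rates hold for the measured arrays was not tested. There, P2ry10 (1.42) and Slco3a1 (-1.18) passed, while Bank1 (1.05), Cd96 (-1.16) and Ublcp1 (2.37) did not (limma adjusted p 0.308, 0.329 and 0.329). No batch is given. The labels do not state separate animals, and the p-values then cover only sample-to-sample spread, which could be technical.

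Named genes are the 12 smallest p-values per direction with 1 sign in both populations, the 8 largest non-overlapping genes per direction, the 4 smallest p per direction for the difference of effects, and 2 members per list; Epor, Etv4, Pecam1, Fth1, Kcnj15's neighbours and further list members were added once values had been seen. The members and lists were chosen with earlier results of these data known. Alternatives were a replicate block, other moderation, array weights, filters, probe set rules, normalization and each array left out. Same-numbered arrays did not deviate together (correlations -0.085 to 0.104), so the numbers were not taken to pair samples.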

Additional observations from a re-analysis of the deposited data

Results flagged for a closer look

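Igll1 and Ifitm1 stand out because the effect of reduced Erg differed between the populations by a test of the difference itself (limma, adjusted p = 0.0157 for each). The MPP effect minus the HSC effect was -2.03 log2 units for Igll1, from 5.36 to 5.74 in Erg +/+, 5.48 to 5.95 in Erg +/-, 7.77 to 8.04 in Erg fl/fl and 5.95 to 6.11 in Erg -/- cells. It was -1.75 for Ifitm1, which was lower in Erg -/- MPPs (9.27 to 9.63) than in Erg fl/fl MPPs (10.98 to 11.17) and at 12.06 to 12.30 on all HSC arrays; its second probe set had an additive difference of -0.90, against -0.79. Ttc39b had arrays wholly apart in opposite directions, with an effect of -0.599 in HSCs (7.44 to 7.96 in Erg +/+, 6.80 to 7.34 in Erg +/-) and 1.52 in MPPs (4.80 to 5.86 in Erg fl/fl, 6.88 to 7.05 in Erg -/-), and its difference of effects had an adjusted p of 0.143 by limma. Beyond the array weights of 1 alternative fit, groups of 3 arrays were not searched for outlying arrays. The lowest weights were those of Erg fl/fl replicate 1 (0.667) and Erg +/+ replicate 1 (0.789), the controls that another setting leaves out together.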

How the results depend on the processing

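The additive model called 3 genes and called 0 with the replicate block, 0 over all deposited probe sets (smallest adjusted p 0.266, 1078 at an unadjusted p under 0.05), 0 with both replicate 1 controls (Erg +/+ HSC and Erg fl/fl MPP) left out, 5 after a repeated quantile normalization (Etv5 and Arhgap10 added), 10 by the average of a group-mean model, and 0 to 2 with 1 array left out. Within HSCs the 2 calls became 1 with the replicate block, 5 with intensity trend and robust moderation, 7 with the filter at the 25th percentile, 0 with the mean of probe sets, 0 with only the HSC arrays and 0 without both replicate 1 controls, and 1 to 8 with 1 array left out. Within MPPs the 8 calls became 4 without both replicate 1 controls and 5 to 10 with 1 array left out. The 2 calls for the difference of effects became 0 with the block, 4 with trend and robust moderation, 1 without both replicate 1 controls and 0 to 3 with 1 array left out. The 78 genes whose arrays lay apart in both populations became 217 without both replicate 1 controls and 112 to 175 with 1 array left out, since fewer arrays are compared. A change required in each population passed for 0 genes in every setting run. Of 1425 values of the 63 named genes under other settings, 1370 kept their direction and side of the threshold, 44 lost a call, 11 gained one and 0 changed sign. Only P2ry10, Ces2g and Slco3a1 had a call to lose, so the 44 lost calls are all theirs. The cause of these changes was not tested beyond the number of genes or arrays in each fit.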

Other observations

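Probe sets without a single gene symbol were also compared. Of 8062 such probe sets none passed (limma, smallest adjusted p 0.795). Wholly above their controls in both populations lay 20 of them and wholly below 21, which is 0.509% for both directions together. Of the 9984 genes 0.361% lay wholly above and 0.421% wholly below, so their share for both directions together was larger. On all arrays, which are labelled male, Xist read 3.72 to 4.38 and Kdm5d, a Y-linked gene, 6.75 to 7.71.

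Several further genes of different functions lay apart in both populations at small size. Id1, an inhibitor of helix-loop-helix factors, had 0.31 log2 units in HSCs and 0.38 in MPPs, Ror2, a Wnt5a receptor, 0.55 and 0.22, and Lgals3, a galactoside-binding lectin, 0.58 and 0.38. Among lower genes, Hcst, the DAP10 adaptor of activating receptors, had -0.58 and -0.63, Rab21, a GTPase of integrin trafficking, -0.51 and -0.64, and Ncf4, a subunit of the phagocyte oxidase, -0.42 and -0.52. None passed over all genes in the additive model (adjusted p 0.454 to 0.567 by limma), and these were chosen after their values were seen.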
